A study of Homo sapiens with 2 samples.

Results

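Collagens are the main structural proteins of the matrix around cells, and their expression was examined in A2780 ovarian carcinoma cells selected for drug resistance. The members were all array probes, control spots left out, whose gene name begins with COL followed by digits and the letter A. This rule found 70 of the 41000 probes, for 43 of the 30238 gene names. It also took in COL4A3BP, which codes for a ceramide transfer protein and not for a collagen, so that 68 probes for 42 collagen genes remained. A2780 is an established human ovarian carcinoma line. A2780CBN was selected in carboplatin, up to 22.2 µM per the labels. A2780CBNDXL was selected in carboplatin and docetaxel given together, for which the labels state a terminal dose of 8.02 µM for the combination. In the study's text, 8.02 µM is the carboplatin part of this line's inhibitory concentration in a colony assay, with docetaxel far lower. The terminal dose given there is lower than this for both drugs. Both lines are populations raised through stepwise dose increases, not single clones. A co-cultured control, passaged without drug and labelled A2780CC in both cases, was kept for each of them. Each line is a single pool of RNA from 3 isolations. It was set against the pool of its control on 4 two-colour arrays, with both dye orientations on each of 2 slides. The docetaxel-selected line A2780DXL was not analysed here.

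Each collagen molecule is a triple helix of 3 chains, and many types are built from chains of different genes. Fibrillar collagens form the cross-striated cables of the matrix, with type V or type XI chains inside the fibril, while type IV collagen forms the sheet of the basement membrane and type VI collagen forms beaded filaments. Fibril-associated collagens sit on the surface of the cables, and a few collagens span the cell membrane. The chains are hydroxylated and folded in the endoplasmic reticulum, trimmed outside the cell and cross-linked by lysyl oxidases. Epithelial tumour cells lie on type IV collagen, and collagen I and its partners are known mainly as products of fibroblasts.

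A helix can form only where glycine fills 1 of each 3 residues in a row, and this repeat could be read directly in the probes. Of the 41000 probes, 3 held a glycine codon (GG followed by any base) at 1 of each 3 codons, in a single frame, over their whole length, and all 3 were collagen probes. They are shown in the sense strand with these codons in capitals, since they are what the collagen gene names stand for. Positions are those of the array design on NCBI36. The COL3A1 probe lay within chr2:189577321-189578365 on the plus strand, the COL4A1 probe within chr13:109624341-109624847 on the minus strand and the COL4A5 probe at chrX:107756144-107756203 on the plus strand. The span of the first pair of regions is longer than a probe because the file gives the outer ends of an interrupted match. Whether other probes lie in coding or untranslated exons was not annotated here.
COL3A1: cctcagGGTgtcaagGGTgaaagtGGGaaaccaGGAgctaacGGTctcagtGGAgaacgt
COL4A1: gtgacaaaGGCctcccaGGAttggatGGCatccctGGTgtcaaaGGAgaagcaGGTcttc
COL4A5: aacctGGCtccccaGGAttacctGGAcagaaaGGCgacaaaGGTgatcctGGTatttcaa

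The type IV collagen genes lie in pairs that are read outward from a shared stretch of DNA, and the whole stretch between COL4A1 and COL4A2 is short enough to be shown. It is 126 bases long, at chr13:110307158-110307283 of GRCh38.p14 in RefSeq, written on the plus strand with COL4A1 read to the left and COL4A2 to the right. COL5A1, COL11A1 and COL12A1 are shown beside it because their ratios went in different directions. For these, the 250 bases before the start site are printed in the direction of the gene, at chr9:134641553-134641802 (plus strand), chr1:103108523-103108772 (minus strand) and chr6:75206054-75206303 (minus strand). Capitals mark the GC box GGGCGG, the motif CCAAT and the TATA box TATAAA on either strand. A reverse GC box and CCAAT can share letters, and in these stretches no letter belonged to more than 1 match.
COL4A1_COL4A2: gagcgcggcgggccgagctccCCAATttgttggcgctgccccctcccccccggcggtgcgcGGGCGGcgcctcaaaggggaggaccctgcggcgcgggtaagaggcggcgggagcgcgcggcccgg
COL5A1: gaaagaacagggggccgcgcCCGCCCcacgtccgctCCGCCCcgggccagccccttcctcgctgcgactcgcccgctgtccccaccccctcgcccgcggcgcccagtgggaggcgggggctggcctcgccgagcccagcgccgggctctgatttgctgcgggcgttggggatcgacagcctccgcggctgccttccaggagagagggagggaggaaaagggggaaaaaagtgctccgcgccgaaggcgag
COL11A1: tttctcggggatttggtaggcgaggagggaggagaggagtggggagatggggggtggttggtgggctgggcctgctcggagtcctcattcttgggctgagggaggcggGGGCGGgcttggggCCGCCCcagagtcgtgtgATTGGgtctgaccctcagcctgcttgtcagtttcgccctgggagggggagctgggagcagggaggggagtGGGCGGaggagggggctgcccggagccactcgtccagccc
COL12A1: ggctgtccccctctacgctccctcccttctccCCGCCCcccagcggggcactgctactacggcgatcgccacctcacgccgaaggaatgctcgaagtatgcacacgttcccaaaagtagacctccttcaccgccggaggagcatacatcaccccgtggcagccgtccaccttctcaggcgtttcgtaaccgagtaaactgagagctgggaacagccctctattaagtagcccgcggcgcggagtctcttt

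A promoter window of 300 bases was found in RefSeq for 30 of the 42 collagen genes, and its 250 bases before the start site were searched. Each collagen gene was counted by 1 window, while all windows together can hold several per gene. The GC box stood in 60.0% of the collagen windows and in 42.6% of all 35116 windows. CCAAT stood in 26.7% of the collagen windows and 32.0% of all, and TATAAA in 16.7% and 10.7%. A match in these windows is a description of the letters only.

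All values are processed signals of 1 probe per gene, that with the highest mean signal, and signals of different probes were not set against each other. A gene was assessed in a line when the resistant line or the control was well above background on all 4 arrays, and it was called when its mean log2 ratio reached 1 in size (a 2-fold change) with the same sign on all 4. Array 1 and array 3 of each line had forward labelling on slides 1 and 2, and array 2 and array 4 had reverse labelling on the same slides. Errors are SDs over these arrays, which repeat 1 pooled sample, so they cover labelling and hybridization and not the spread between cultures. With 1 sample per line there is no test, and no p-value is given. On the arrays 59.8% to 67.5% of spots were well above background and none was saturated. In all cells together, fewer cells of a kind and less RNA per cell cannot be told apart.

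The share of collagens called lay above that of all genes in both lines, which is a description and not a test. In A2780CBN, 26 of the 42 collagen genes were assessed. Of these, 6 had a higher and 3 a lower level in the resistant line, or 34.6% in all. Over all 17951 genes assessed in that line, 12.6% were called, with 8.0% higher and 4.55% lower. In A2780CBNDXL, 25 collagens were assessed, and 8 were higher and 6 lower, or 56.0%, beside 16.9% of all 17116 genes, with 7.70% higher and 9.20% lower. The median log2 ratio of the assessed collagens was 0.08 in A2780CBN, where that of all genes was -0.06, and 0.28 in A2780CBNDXL, where that of all genes was 0.04. The family therefore did not shift as a block, and its calls went in both directions in each line.

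Of the 18 collagens called in either line, COL3A1 and COL5A1 were higher in both and COL1A2 and COL2A1 were lower in both. COL12A1 was higher in A2780CBN and lower in A2780CBNDXL. The calls of COL6A1, COL11A1, COL16A1 and COL17A1 were made in A2780CBN alone, and those of COL1A1, COL4A5, COL6A2, COL6A3, COL9A2, COL9A3, COL11A2, COL13A1 and COL23A1 in A2780CBNDXL alone. After normexp background correction with an offset of 50 and loess, which pulls dim signals together, 6 of the 9 calls in A2780CBN remained (COL1A2, COL2A1, COL3A1, COL5A1, COL6A1 and COL11A1). By the same setting, 6 of the 14 in A2780CBNDXL remained (COL1A1, COL1A2, COL2A1, COL3A1, COL6A2 and COL6A3).

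**Figure D1:**
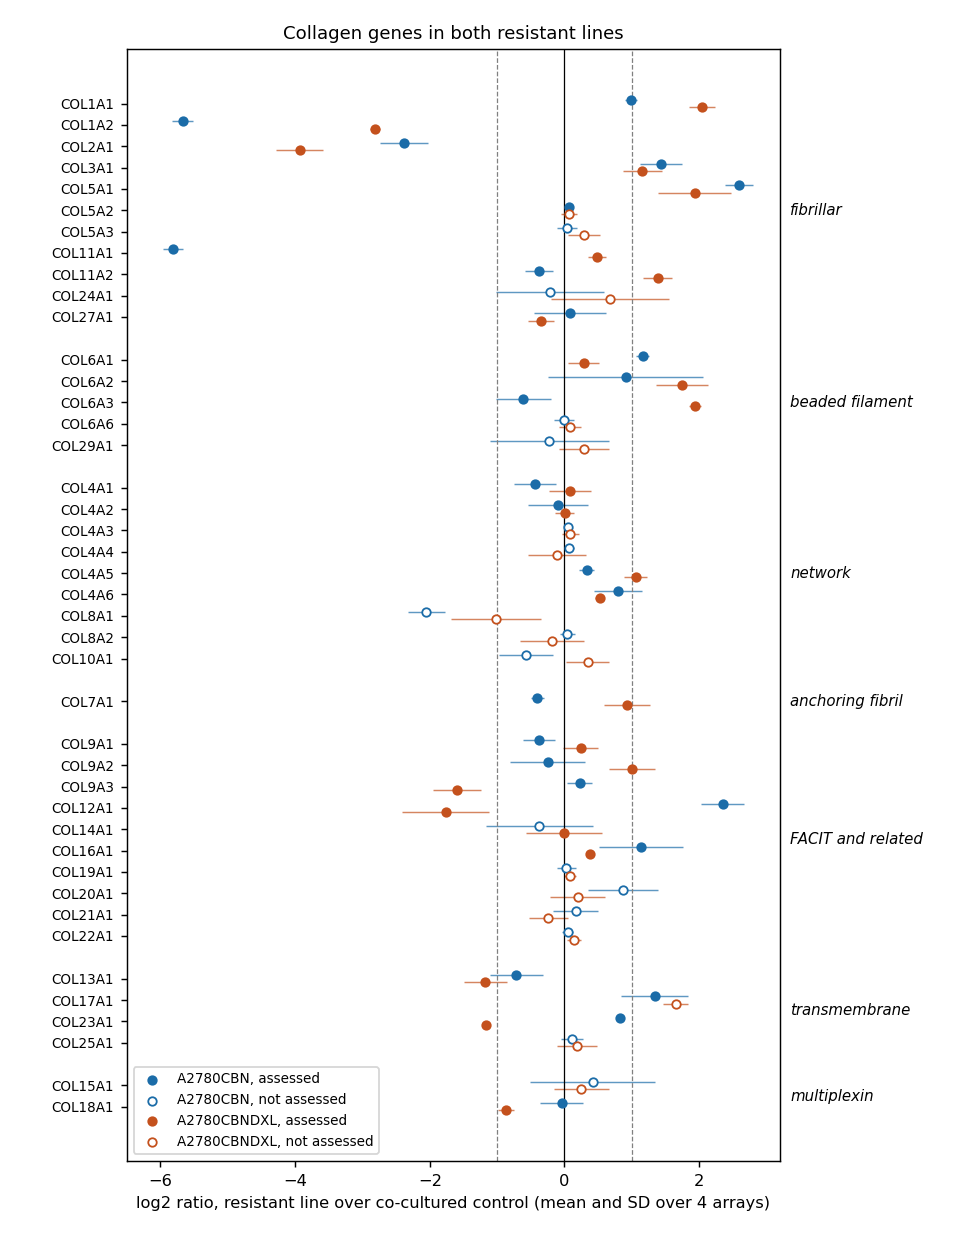
Mean log2 ratio of each of the 42 collagen genes by class, with A2780CBN in blue and A2780CBNDXL in orange, bars for the SD over the arrays and dashed lines at the 2-fold limits. Filled points were assessed and open points were not. COL1A2 stands at -5.67 in A2780CBN, and the COL11A1 point of that line and both COL12A1 points have a side at background, so that their distance from 0 is not a measured size.

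Type I collagen, the most abundant fibrillar collagen of the body, is made of chains from COL1A1 and COL1A2, and these went in opposite directions. The log2 ratio of COL1A2 (chr7:93896579-93896638 on NCBI36) on arrays 1 to 4 of A2780CBN was -5.66, -5.60, -5.89 and -5.53. Its mean was -5.67 ± 0.15, from a signal of 1534 in the control to 30.9 in the resistant line, which was well above background there on 3 of 4 arrays. In A2780CBNDXL the values were -2.83, -2.70, -2.88 and -2.83, with a mean of -2.81 ± 0.07 and signals of 6766 and 969. All 8 arrays thus had less COL1A2 in the resistant line. After normexp correction the means were -2.35 in A2780CBN and -2.53 in A2780CBNDXL, so the larger fall in A2780CBN was not kept. A second COL1A2 probe was not above background on any A2780CBN array and gave -2.39 ± 0.74 in A2780CBNDXL.

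COL1A1 (chr17:45616564-45616625) was higher in both resistant lines, and in A2780CBN it lay just under the 2-fold limit. Its log2 ratios there were 1.09, 0.90, 1.01 and 0.94, with a mean of 0.99 ± 0.08 (1.98-fold). In A2780CBNDXL they were 2.26, 1.86, 2.15 and 1.89, with a mean of 2.04 ± 0.20 (4.11-fold), and the signal went from 265 to 1072. No array of A2780CBNDXL reached down to the range of A2780CBN.

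Type II collagen is the fibrillar collagen of cartilage, made of a single chain, and its gene COL2A1 (chr12:46653216-46653275) was lower in both lines. The A2780CBN arrays gave -1.97, -2.57, -2.23 and -2.77, with a mean of -2.38 ± 0.35 (5.22-fold lower). The A2780CBNDXL arrays gave -3.76, -4.17, -3.52 and -4.26, with a mean of -3.93 ± 0.35 (15.2-fold lower). The control signals were 958 and 838, and those of the resistant lines 183 and 55.9. After normexp correction the means were -1.23 in A2780CBN and -1.77 in A2780CBNDXL, so the size of the fall depended on the correction. Reverse labelling gave the larger fall in both lines.

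Type III collagen accompanies type I in soft tissues, and COL3A1 (chr2:189583316-189583657) was higher in both lines by similar amounts. Its ratios were 1.68, 1.22, 1.73 and 1.11 in A2780CBN, with a mean of 1.44 ± 0.31 (2.71-fold). In A2780CBNDXL they were 0.90, 1.39, 0.92 and 1.42, with a mean of 1.16 ± 0.29 (2.23-fold). The signal rose from 14983 to 40143 and from 19088 to 42590. All 3 COL3A1 probes were called in A2780CBN, where the probe printed above gave 1.45 ± 0.19. In A2780CBNDXL that probe gave 1.46 ± 0.74 and was called too, and the remaining probe gave 1.09 ± 0.11 on 3 arrays, since it had no value on array 3 and was not assessed.

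Type V and type XI chains control how thick a fibril grows, and they are closely related and can share a molecule. COL5A1 (chr9:136874373-136874432) was higher in both lines. Its values in A2780CBN were 2.67, 2.48, 2.84 and 2.37, with a mean of 2.59 ± 0.21 (6.02-fold) and signals of 85.3 and 513. In A2780CBNDXL they were 2.51, 2.27, 1.59 and 1.38, with a mean of 1.94 ± 0.54 (3.83-fold) and signals of 146 and 523. In the latter line slide 1 gave the higher pair. After normexp correction the means were 1.15 in A2780CBN and 0.915 in A2780CBNDXL, the latter under the 2-fold limit. The second COL5A1 probe was called in both lines as well, at 2.87 ± 0.55 and 2.36 ± 0.67.

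The partner chain gene COL5A2 was not called in either line, unlike COL5A1. Its mean was 0.07 ± 0.04 in A2780CBN, with signals of 37642 and 39642. In A2780CBNDXL it was 0.07 ± 0.11 on 3 arrays, since its spots on array 3 had been marked as outliers and the gene was not assessed there. A second COL5A2 probe gave 0.43 ± 0.25 in A2780CBN and 0.47 ± 0.27 on 3 arrays in A2780CBNDXL. The remaining probe gave -0.33 ± 0.35 in A2780CBN. It was assessed in A2780CBNDXL, at 0.42 ± 0.07, without a call. COL5A3 was at background on all arrays.

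COL11A1 (chr1:103116051-103116110) was called lower in A2780CBN alone. The control signal was 302 and the resistant line stayed at background on all 4 arrays, which made COL11A1 at least 13.3-fold lower there. The computed log2 ratios of -5.92, -5.62, -5.77 and -5.95 rest on that background signal and give a direction but no size. After normexp correction the mean was -1.02, and with plainly background-subtracted signals the gene was not assessed in this line. Bounds of this kind set the bright side against the higher of the dim signal and the lowest signal that was well above background on each array. In A2780CBNDXL the values were 0.64, 0.39, 0.54 and 0.34, with a mean of 0.48 ± 0.14 and signals of 829 and 1138. All 4 arrays of A2780CBNDXL were thus slightly above 0 for the gene that was at background in A2780CBN.

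COL11A2 (chr6:33238447-33238487) went with A2780CBNDXL. Its ratios there were 1.62, 1.10, 1.45 and 1.38, with a mean of 1.39 ± 0.22 (2.61-fold). In A2780CBN its mean was -0.38 ± 0.21, below 0 on all arrays. The remaining fibrillar genes were COL27A1, with 0.09 ± 0.53 and -0.35 ± 0.19, and COL24A1, which was not above background. Together, 9 fibrillar genes were assessed in A2780CBN, with 2 higher and 3 lower, and 8 in A2780CBNDXL, with 4 higher and 2 lower.

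**Figure D2:**
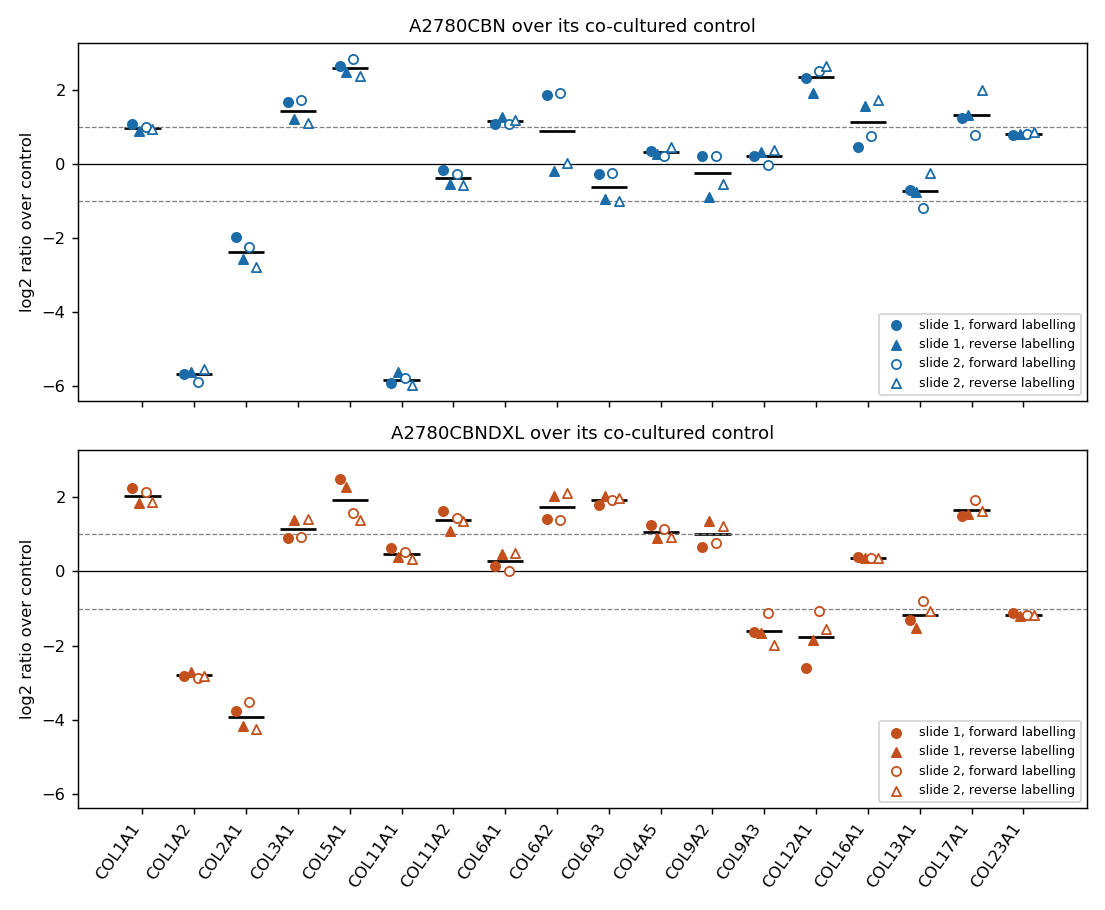
Log2 ratio over the control on every array for the 18 collagens called in either line, with A2780CBN above and A2780CBNDXL below. Circles are forward and triangles reverse labelling, filled for slide 1 and open for slide 2, black bars are means, and COL6A2 in A2780CBN splits by labelling, at 1.88 and 1.92 against -0.20 and 0.03.

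**Figure D3:**
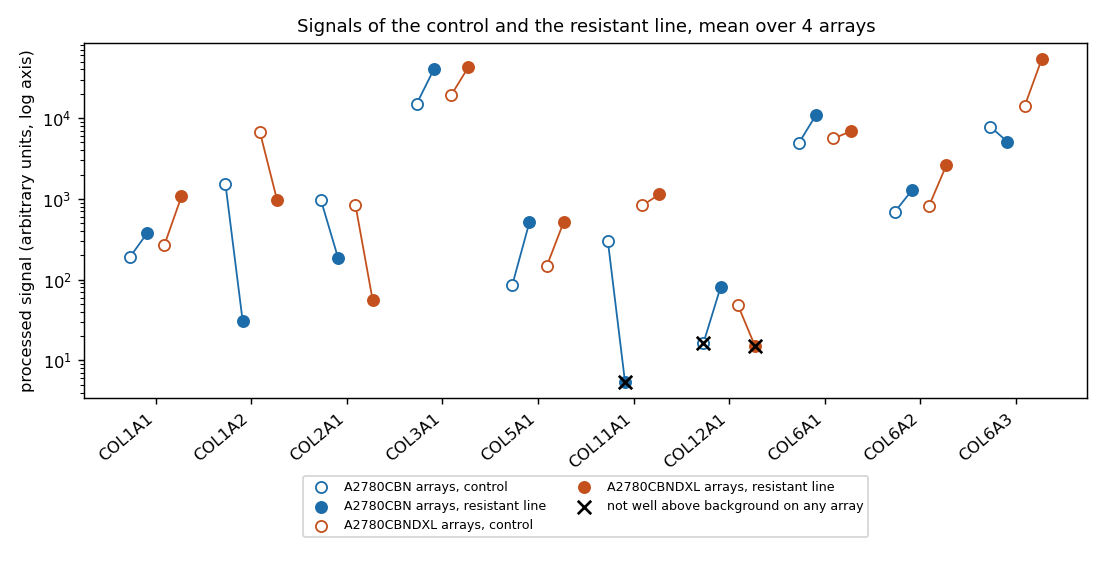
Mean processed signal over 4 arrays, on a log axis, of the control (open) and the resistant line (filled) for 10 collagen genes, where lines join both sides of the same arrays and a cross marks a side at background on all 4 arrays. The COL1A2 control differed between the lines, at 1534 and 6766, and the COL6A3 signal of A2780CBNDXL reached 54154.

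Type VI collagen is assembled from COL6A1, COL6A2 and COL6A3 chains, and the lines differed in which of the 3 were called higher. By the 1 probe used per gene, COL6A3 alone met the limit for a difference between the lines. The log2 ratio in A2780CBNDXL less that in A2780CBN was -0.88 for COL6A1 and 0.84 (-0.52 to 2.23) for COL6A2. The second COL6A2 probe gave 1.06 (0.34 to 1.81) and met the limit, so its 2 probes disagreed on this. COL6A1 (chr21:46249264-46249323) was higher in A2780CBN, with 1.08, 1.28, 1.08 and 1.19 and a mean of 1.16 ± 0.10 (2.23-fold). In A2780CBNDXL its mean was 0.28 ± 0.24. The mean over both COL6A1 probes in A2780CBN was 0.97, under the 2-fold limit.

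COL6A3 (chr2:237897376-237897413) showed the reverse. Its ratios in A2780CBNDXL were 1.81, 2.03, 1.93 and 1.97, with a mean of 1.94 ± 0.09 (3.83-fold) and signals of 14078 and 54154. In A2780CBN they were -0.27, -0.95, -0.25 and -0.98, with a mean of -0.61 ± 0.41. Every array of the carboplatin line was below 0 and every array of the dual line near 2 on the log2 scale.

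COL6A2 (chr21:46376671-46376730) was called in A2780CBNDXL, at 1.42, 2.03, 1.40 and 2.13, with a mean of 1.75 ± 0.39 (3.36-fold). In A2780CBN it was 1.88 and 1.92 with forward labelling and -0.20 and 0.03 with reverse labelling, so its mean of 0.91 ± 1.15 had no agreed direction. Its second probe gave 0.33 ± 0.39 and 1.40 ± 0.35 in the respective lines. COL6A6 and COL29A1, which RefSeq now names COL6A5, were not above background.

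Of the type IV chains of the basement membrane, COL4A5 was called, in A2780CBNDXL. The divergent pair COL4A1 and COL4A2, whose shared upstream stretch is printed above, gave -0.44 ± 0.31 and -0.10 ± 0.44 in A2780CBN. In A2780CBNDXL the pair gave 0.08 ± 0.31 and 0.00 ± 0.14. Neither gene was called, and their control signals were between 52.5 and 140. The pair COL4A3 and COL4A4, with 418 bases between the start sites, was not assessed in either line.

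The X-linked pair is COL4A5 and COL4A6. COL4A5 (chrX:107827236-107827295) was called in A2780CBNDXL, with 1.25, 0.89, 1.15 and 0.94 and a mean of 1.06 ± 0.17 (2.08-fold). In A2780CBN it was 0.33 ± 0.11. Its other probes gave 1.53 ± 0.62 and, for the probe printed above, 0.64 ± 0.17 in A2780CBNDXL. In A2780CBN they gave 0.66 ± 0.38 and, for the printed probe, -0.38 ± 0.17, so the probes disagreed in direction there. The printed probe alone met the limit for a difference between the lines, at 1.02 (0.77 to 1.16). COL4A6 was above 0 on all 8 arrays without a call, at 0.79 ± 0.36 in A2780CBN and 0.52 ± 0.06 in A2780CBNDXL. Of the other network formers, COL8A1, COL8A2 and COL10A1 were not assessed in either line. COL8A1 had a mean of -2.05 ± 0.27 in A2780CBN, but its control was above background on 2 arrays only.

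COL7A1, the anchoring fibril collagen that ties the basement membrane to the tissue beneath, moved in opposite directions short of the limit. The A2780CBN arrays gave -0.37, -0.39, -0.32 and -0.54, with a mean of -0.40 ± 0.10, and the A2780CBNDXL arrays 0.59, 1.21, 0.67 and 1.22, with a mean of 0.92 ± 0.34.

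Among the fibril-associated collagens, COL12A1 (chr6:75851009-75851068) was the collagen called in opposite directions. The A2780CBN control was at background on all 4 arrays, and COL12A1 was at least 3.56-fold higher in the resistant line, with computed log2 ratios of 2.33, 1.91, 2.52 and 2.64. In A2780CBNDXL the resistant line was at background instead and was at least 2.17-fold lower, with computed ratios of -2.62, -1.84, -1.06 and -1.55. The sign is the same on all arrays of a line, and the sizes rest on background. These are dim signals, 80.9 at most, and the second COL12A1 probe was not assessed in either line.

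Type IX collagen joins COL9A1, COL9A2 and COL9A3 chains on the surface of type II fibrils, and its genes did not move together. COL9A2 (chr1:40538967-40539026) in A2780CBNDXL had 0.66, 1.35, 0.77 and 1.24, with a mean of 1.00 ± 0.34 (2.00-fold), at the limit itself. Without array 2 or without array 3 it was not called. COL9A3 (chr20:60942716-60942775) was lower in the same line, at -1.63, -1.66, -1.13 and -1.99, with a mean of -1.60 ± 0.36 (3.03-fold lower) and the resistant line above background on 3 arrays. COL9A1 gave 0.24 ± 0.26 there. In A2780CBN the 3 chains gave -0.38 ± 0.24, -0.25 ± 0.56 and 0.23 ± 0.19 in the order COL9A1, COL9A2 and COL9A3, with no call.

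COL16A1 (chr1:31890762-31890821), which associates with several fibril types, was higher in A2780CBN, with 0.45, 1.58, 0.76 and 1.74 and a mean of 1.13 ± 0.62 (2.20-fold). Forward labelling gave the lower pair. In A2780CBNDXL it was 0.37 ± 0.01. COL14A1 was assessed in A2780CBNDXL only, at -0.01 ± 0.57. COL19A1, COL20A1, COL21A1 and COL22A1 were not assessed in either line.

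Among the membrane-spanning collagens, COL23A1 went in opposite directions in the lines. COL17A1 (chr10:105781073-105781132), an anchor protein of basal epithelial cells, was higher in A2780CBN, with 1.25, 1.33, 0.79 and 2.00 and a mean of 1.34 ± 0.50 (2.53-fold), where the control was above background on 1 array. In A2780CBNDXL it was at least 2.49-fold higher, but the resistant line was above background on 3 of 4 arrays and no call was made. COL23A1 (chr5:177597411-177597470) had values close to each other in each line. It gave 0.79, 0.82, 0.83 and 0.86 in A2780CBN, with a mean of 0.82 ± 0.03, and -1.12, -1.20, -1.17 and -1.17 in A2780CBNDXL, with a mean of -1.16 ± 0.03 (2.24-fold lower). COL13A1 (chr10:71388613-71388672) was lower in A2780CBNDXL, at -1.31, -1.54, -0.80 and -1.07, with a mean of -1.18 ± 0.32, and in A2780CBN it gave -0.72 ± 0.39, with the resistant line above background on 1 array in each case. COL17A1 and COL13A1 did not meet the limit for a difference between the lines. COL25A1 was not above background.

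Of the multiplexins, which carry sugar chains and release inhibitors of vessel growth, COL18A1 was assessed. It gave -0.04 ± 0.32 in A2780CBN and -0.87 ± 0.12 in A2780CBNDXL, while its second probe gave 0.03 ± 0.49 and 0.51 ± 0.19, so that the probes disagreed in direction in the dual line. COL15A1 was not above background. In all, 15 collagen genes were assessed in neither line, and 7 were assessed in both and called in neither, namely COL4A1, COL4A2, COL4A6, COL7A1, COL9A1, COL18A1 and COL27A1. Not assessed means that these arrays put no value on the gene, not that it was silent.

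The lines were then set against each other over the 4 pairs of arrays with the same slide and labelling. Of 24 collagens assessed in both, the log2 ratio of 7 was higher in A2780CBNDXL by at least 1 with the same sign in every pair, and that of 4 was lower. Among 16131 genes 16.6% differed in this way, 6.04% higher and 10.5% lower. COL11A1 and COL12A1 are among these counts, higher and lower, and no size is given for them because a side was at background. COL1A2 differed by 2.86 (2.70 to 3.01) and COL6A3 by 2.55 (2.07 to 2.98). After normexp correction COL1A2 stood at -2.35 in A2780CBN and -2.53 in A2780CBNDXL, so its difference was not kept. COL6A3 then stood at -0.58 and 1.91 in the same order. COL11A2 differed by 1.76, COL7A1 by 1.33, COL9A2 by 1.25 and COL1A1 by 1.05. On the lower side stood COL23A1 with -1.99 (-2.03 to -1.91), COL9A3 with -1.83 and COL2A1 with -1.55. COL5A1 and COL3A1, higher in both lines, differed by -0.65 and -0.28 with SDs of 0.56 and 0.60 over the pairs.

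A ratio contains the control as well, and each line had a control culture of its own, so both channels were compared after scaling between arrays. In the resistant channels 6 of 26 collagens were higher in A2780CBNDXL (COL1A1, COL1A2, COL4A5, COL6A3, COL9A2 and COL11A1) and 3 were lower (COL2A1, COL12A1 and COL23A1), beside 6.16% and 9.12% of all genes, or 15.3% together. In the control channels, 4 of 26 collagens were higher and 2 lower, beside 3.09% and 1.25% of all genes, or 4.34% together. The control of A2780CBNDXL had more COL1A2 by 2.04 ± 0.23, COL11A1 by 1.31 ± 0.44 and COL9A3 by 1.26 ± 0.18, and more COL12A1, which was at background in the control of A2780CBN. It had less COL11A2, by -1.16 ± 0.30, and less COL7A1, by -1.12 ± 0.24.

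The choice of control therefore moved several ratios. Read against the control channel of the A2780CBN arrays, A2780CBNDXL kept 8 of its 14 calls, and COL2A1, at -4.18, was the only collagen called lower. COL1A2 was then at -0.77, COL9A3 at -0.35, COL13A1 at -0.51 and COL23A1 at -0.76, and COL11A2 was at 0.23. COL12A1 was at background on both sides of this comparison. COL11A1 was at 1.79 and was called higher. A2780CBN read against the control of the other arrays kept 7 of 9 calls and lost those of COL12A1, at 0.88, and COL16A1, at 0.89. It gained lower calls of COL6A3 at -1.33, COL13A1 at -1.38 and COL9A3 at -1.03, so that 4 collagens were called higher and 6 lower in place of 6 and 3. COL1A2 was at -7.71, and COL11A1 was called lower against a resistant side at background. COL3A1, COL5A1 and COL2A1 were called in the same direction in both lines with either control.

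Genes that fold and modify collagen chains in the endoplasmic reticulum were called about as often as all genes or less. Of 19 on the list, 17 were assessed in each line. In A2780CBN, P4HA3 (1.77 ± 0.28, with the control above background on 1 array) and P4HA2 (1.35 ± 0.43), which code for proline hydroxylase subunits, were higher. In A2780CBNDXL, PLOD2 (-3.48 ± 0.15), the lysyl hydroxylase of the chain ends, and GLT25D2 (-2.39 ± 0.11), a collagen galactosyltransferase, were lower. PLOD2 was 0.08 ± 0.22 in A2780CBN. The chaperone SERPINH1 was 0.65 ± 0.14 and 0.22 ± 0.65. The list's medians were 0.38 and -0.03, and 11.8% of its assessed genes were called in each line, beside 12.6% of all genes in A2780CBN and 16.9% in A2780CBNDXL.

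Of the 5 lysyl oxidase genes, which start the cross-links between chains, LOX, LOXL3 and LOXL4 were higher in both lines. LOXL4 gave 2.92 ± 0.25 in A2780CBN and 2.65 ± 0.17 in A2780CBNDXL, LOX gave 1.98 ± 0.30 (control above background on 1 array) and 3.56 ± 0.22, and LOXL3 gave 1.06 ± 0.24 and 1.30 ± 0.06. LOXL2 was not called, with 0.14 ± 0.17 in A2780CBN and -0.50 ± 0.12 in A2780CBNDXL, where all 4 arrays were below 0. LOXL1 was lower in A2780CBNDXL alone, at -1.19 ± 0.22, and was 0.39 ± 0.39 in A2780CBN. TGM2, a transglutaminase, was 2.04 ± 0.30 in A2780CBN with the control above background on 2 arrays. TLL2, a tolloid-like protease, was at least 1.75-fold higher there with the control below background. PCOLCE2, an enhancer of procollagen cleavage, was -1.40 ± 0.34 in A2780CBNDXL. PCOLCE, of the same list, went the other way there, at 2.0 ± 0.2 on 3 arrays. It had no value on array 3 and was not assessed in that line. In A2780CBN PCOLCE was 0.67 ± 0.60 and was not called. In all, 5 of 12 assessed genes of procollagen processing and cross-linking were higher and none was lower in A2780CBN, where 8.0% of all genes were higher and 4.55% lower. In A2780CBNDXL 3 of 10 were higher and 2 lower, beside 7.70% and 9.20% of all genes.

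Of the genes for the breakdown of collagen, 4 of 8 assessed were higher and 2 lower in A2780CBNDXL, where 16.9% of all genes were called. In A2780CBN 1 of 5 assessed was called, CTSK, at -1.26 ± 0.39, beside 12.6% of all genes. The lines differ in which of these genes could be assessed, and the difference between the counts was not tested. MMP14, the membrane-bound collagenase, was 3.65 ± 0.31 in A2780CBNDXL and 0.85 ± 0.36 in A2780CBN. MMP2, a gelatinase, was at least 6.60-fold higher in A2780CBNDXL and FAP, a surface protease, at least 3.25-fold higher, with controls below background, and neither was above background in A2780CBN. MRC2, a receptor for collagen fragments, was 1.63 ± 0.64. The interstitial collagenase MMP1 was lower in A2780CBNDXL, at -4.25 ± 0.32, and was -0.76 ± 0.55 in A2780CBN. CTSK, a lysosomal collagenase, was lower in both lines, with -1.64 ± 0.22 in A2780CBNDXL.

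**Figure D4:**
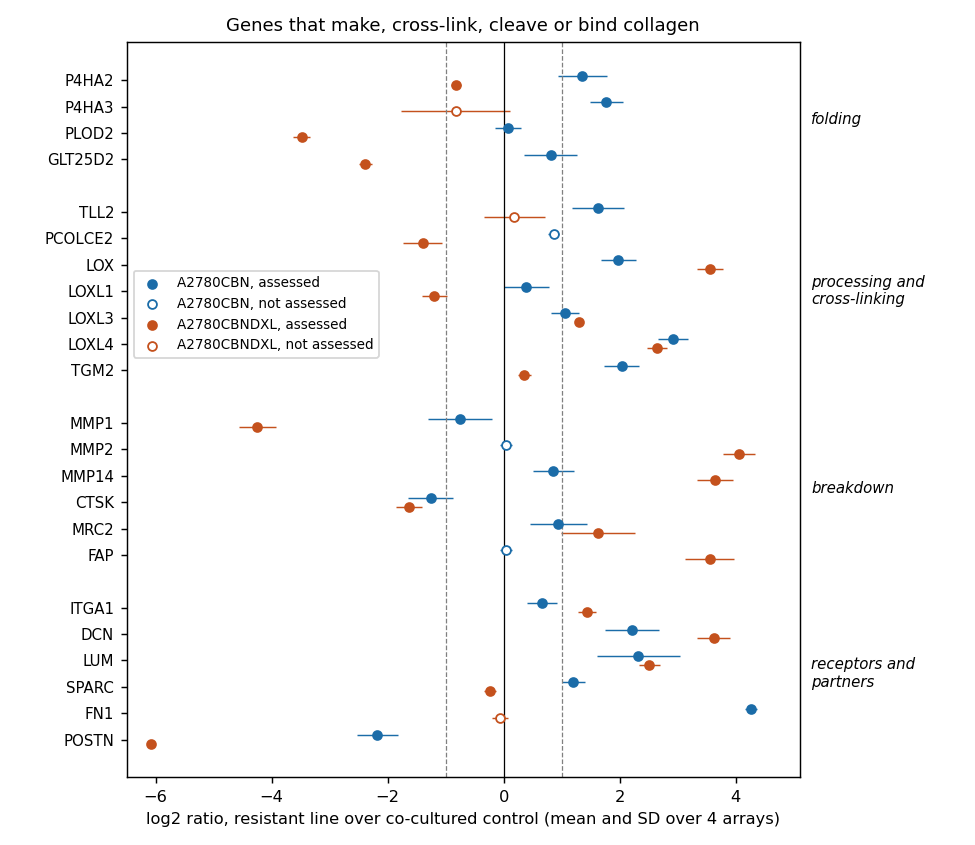
Mean log2 ratio with SD over the arrays for the genes of the 4 lists around collagen that were called in either line, with A2780CBN in blue, A2780CBNDXL in orange, open points for genes not assessed and dashed lines at the 2-fold limits. Of the values with both sides above background on all 4 arrays, POSTN at -6.08 is the lowest and MMP14 at 3.65 the highest, both in A2780CBNDXL. FN1, LUM and TLL2 in A2780CBN and MMP2 and FAP in A2780CBNDXL have a control at background, so that their points show no measured size.

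Receptors and partners of the fibril were called in 5 of 11 assessed genes in A2780CBN and 4 of 8 in A2780CBNDXL, beside 12.6% and 16.9% of all genes. The small proteoglycans DCN and LUM, which coat fibrils, were higher in both, DCN with 2.21 ± 0.46 and 3.62 ± 0.29. LUM was at least 2.21-fold higher in A2780CBN, with the control at background, and gave 2.51 ± 0.18 in A2780CBNDXL. POSTN, a matrix protein that binds type I collagen, was lower in both, at -2.18 ± 0.35 and -6.08 ± 0.06. FN1, the fibronectin gene, was at least 8.75-fold higher in A2780CBN and not above background in A2780CBNDXL. SPARC, a collagen-binding secreted protein, was 1.20 ± 0.20 in A2780CBN and -0.24 ± 0.10 in A2780CBNDXL. The collagen-binding integrin chain ITGA1 was 1.43 ± 0.15 in A2780CBNDXL and 0.66 ± 0.26 in A2780CBN. The collagen receptors DDR1 and DDR2 were not called.

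Markers of other cell types were read beside these results. The epithelial genes KRT8, KRT18 and MUC1 and the lineage gene PAX8 were above background on all arrays, while KRT7, CDH1, WT1 and MUC16 were on none. EPCAM, an epithelial adhesion gene, was higher in both lines, at 2.07 ± 0.30 in A2780CBN and 1.67 ± 0.24 in A2780CBNDXL. KRT18 was higher in A2780CBN, at 1.05 ± 0.16, and gave 0.51 ± 0.06 in A2780CBNDXL. The other epithelial genes with signal were not called and did not all rise. KRT8 gave -0.37 ± 0.17 in A2780CBN and 0.18 ± 0.07 in A2780CBNDXL. KRT19, a dim signal, gave -0.48 ± 0.51 and 0.92 ± 0.74, and MUC1 gave 0.41 ± 0.36 and 0.75 ± 0.02, in the same order. Of 8 fibroblast genes, 6 were above background on all arrays in A2780CBN and 5 in its control. In A2780CBNDXL there were 7 and in its control 6. The 8 genes moved both ways. PDGFRA was -1.85 ± 0.12 in A2780CBN and 2.90 ± 0.11 in A2780CBNDXL. PDGFRB was 2.36 ± 0.12 in A2780CBN and was called higher. In A2780CBNDXL PDGFRB was -2.53 ± 0.71, with the resistant line above background on 2 arrays and no call. ACTA2 was -0.06 ± 0.35 in A2780CBN and 2.07 ± 0.06 in A2780CBNDXL. THY1 was not called in A2780CBNDXL and was not assessed in A2780CBN. There THY1 counted as above background on 3 arrays of each side, with signals of 9344 and 7753. In these counts, an array whose spots were left out as outliers counts as not above background. FAP, LUM, DCN and POSTN of this list also stand in the lists above. Of 3 endothelial genes, PECAM1 and CDH5 were at background on all arrays and VWF was above it on 1 or 2 arrays of a side. Of 3 leukocyte genes, PTPRC was at background, and CD14 and CD3E were above it on all arrays and were not called. The part of the epithelial and fibroblast genes in the collagen results was not tested.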

How the data were processed

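RNA of 3 isolations per line was pooled and hybridized to 4 two-colour Agilent arrays with probe coordinates on NCBI36. The authors deposited Agilent Feature Extraction output (10.7.1.1 for slide 1, 10.7.3.1 for slide 2), and the processed intensity of each channel, background-subtracted and dye-normalized by the authors, was used. Deposited raw mean and background intensity values served for alternatives only. Partek, named in the submitters' notes, was not used here. No spot was saturated, and spots marked as outliers (165 to 1006 of 43376 per array) were left out.

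The sign of every ratio rests on the labels of the forward arrays, on which the resistant line carries Cy5. For the reverse arrays the dye entries repeat those of the forward arrays although the array name and the methods give them swapped, and they were turned as named. Before turning, forward and reverse arrays correlated over all probes at -0.61 to -0.58 in A2780CBN and -0.74 to -0.73 in A2780CBNDXL, and after turning all arrays of a line correlated at 0.58 to 0.87 and 0.73 to 0.90.

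Log2 ratios were averaged within each dye orientation and then over both. Channels were scaled between arrays by the Aquantile method of limma 3.58.1 (R 4.3.3) for bounds and for comparisons of channels. Of the 68 collagen probes, 60 matched a RefSeq accession. The calling rule, without its background filter, was tried on simulated ratios. Normalization, bounds, scaling of channels and differences between the lines were not simulated. Python 3.11.15, numpy 2.4.6, pandas 2.3.3 and matplotlib 3.10.9 were used. The members, the gene lists and the classes were chosen with earlier results of these data known. All called collagens, the chains and neighbours that pair with them, and up to 6 called members of each other list and line are named, and any further gene was named after its values were seen. Each line is 1 sample, so no test across samples was run, and the number of arrays limits the precision.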

Additional observations from a re-analysis of the deposited data

Results flagged for a closer look

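Collagens whose log2 ratio over the control was above 0 on all 4 arrays of 1 line and below 0 on all 4 arrays of the other are given here. With 1 sample per line the difference was not tested. COL11A1 was -5.82 in A2780CBN and 0.48 in A2780CBNDXL. COL12A1 was 2.35 and -1.77 in the same order, and COL23A1 was 0.82 and -1.16. COL6A3 was -0.61 and 1.94, and COL11A2 was -0.38 and 1.39. COL7A1 was -0.40 and 0.92, and COL9A1 was -0.38 and 0.24. COL11A1 in A2780CBN and COL12A1 in both lines had a side at background on all 4 arrays, so that these values give a direction but no size. The control channels of the lines differed by at least 2-fold for COL7A1, COL11A1, COL11A2 and COL12A1, and their part in the difference was not tested.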

How the results depend on the processing

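No paired analysis was possible because each line is 1 pooled sample with a control of its own. With each array left out in turn, the collagens called numbered 9 to 10 in A2780CBN, 13 to 15 in A2780CBNDXL and 11 to 11 for the difference between the lines. Normexp with loess left 6 calls in A2780CBNDXL and 3 differences, and read against the control of A2780CBN, A2780CBNDXL had 9 calls. Requiring both sides above background left 5 calls in A2780CBN and 6 differences. A 1.5-fold limit gave 14 calls in A2780CBN and 17 differences, and a 3-fold limit gave 5 in A2780CBN, 8 in A2780CBNDXL and 7 differences. All other settings run gave counts within 1.5 times of those reported. Of the 23 called values, none changed sign and 9 kept their call under the 10 alternatives that left the 2-fold limit and background filter unchanged. Settings with another limit or filter, or with probes in place of genes, were not followed gene by gene. COL3A1, kept in both lines, stood at 2.71-fold and 2.23-fold, under the 3-fold limit. The ratio is relative to a control under the same label in both lines, and dim collagens (COL12A1, COL13A1 and COL17A1 among them) have signals near background, where the correction decides the size. The cause of the other changes was not tested.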
